A study of Rattus norvegicus with 12 samples.

Results

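The genes described here are 37 genes of the synthesis of cholesterol, fatty acids and glycerolipids, and of the factors that control them, in the renal cortex of rats. They were chosen as a list by their textbook function, with earlier results of these data already known. All 37 were among the 13151 genes measured, and all 37 passed the filter on low values. The renal cortex was taken at 32 weeks of age from male rats, 4 Zucker lean rats (ZL), 4 Zucker fatty rats (ZF) and 4 Zucker fatty rats given canagliflozin (ZF-SGLT2i), and its RNA was sequenced after depletion of ribosomal RNA. ZF rats lack a functional leptin receptor, so they overeat and become obese, and all 8 fatty rats carry this defect in every cell. Canagliflozin blocks the sodium-glucose cotransporter of the proximal tubule, and the ZF-SGLT2i rats received 10 mg/kg/day in their food for 8 weeks from the age of 24 weeks, with their food matched per body weight to that of untreated ZF rats. Rats kept to study the time course, ZL among them, had an open wedge biopsy of the kidney at 16 and 24 weeks of age, whereas the ZF-SGLT2i rats came from a separate purchase of ZF rats for which no biopsy is described. The study uses names from both experiments for the 4 untreated ZF rats, so it is not settled which of them gave these rats, or whether an earlier biopsy goes with the lean genotype or with the absence of treatment. The hour at which the tissue was collected is not given in the sources used here.

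Each value is in CPM, read counts scaled to a common library total: the reads on a gene were divided by the reads on all genes of that rat and scaled between libraries by the authors. The depth was 8886901 to 12210257 reads on genes per ZL rat, 8824980 to 11191377 per ZF rat and 8914666 to 10293049 per ZF-SGLT2i rat. Of these reads, 7.25% to 12.0% (ZL), 8.82% to 12.0% (ZF) and 11.5% to 15.2% (ZF-SGLT2i) came from Rn28s and Rn45s, ribosomal transcripts that the depletion had left. The values of single rats are given in the order ZL rats 1, 2, 3 and 4, ZF rats 2, 3, 4 and 5, and ZF-SGLT2i rats 2, 3, 4 and 6. Values of groups are means ± SD with n = 4. Groups were compared with limma on log2(CPM + 1) in a fit of all 12 rats. A gene was called higher or lower at a p-value under 0.05 after adjustment over the 11633 genes tested. The lengths of the transcripts were not used, so CPM values of different genes are not set against each other, apart from naming the marker with the highest CPM in a list. The cortex was analysed whole, so fewer cells of a type and less RNA per cell cannot be told apart.

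Cells make cholesterol from acetyl-CoA along the mevalonate pathway, which ends in squalene, and then close and trim the squalene ring system through a series of sterols. Fatty acids are built from the same acetyl-CoA by acetyl-CoA carboxylase and fatty acid synthase, and are then lengthened, desaturated and joined to glycerol. The transcription factors encoded by Srebf1 and Srebf2 drive most of these genes: they are held in the endoplasmic reticulum by Insig proteins while sterols are plentiful, and are carried by Scap to the Golgi for cleavage when sterols run low. They bind sterol regulatory elements next to sites of other factors, among them the CCAAT box that NF-Y binds. In the kidney, proximal tubule cells mainly burn fatty acids for energy, but they also make sterols and lipids for their membranes.

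RefSeq promoter sequences (GRCr8 assembly) were matched by symbol for 28 of the 37 genes. The other 9 are Pmvk, Fdft1, Sqle, Stard4, Acaca, Fasn, Elovl6, Dgat1 and Dgat2. The 250 bases before the transcription start were searched on both strands for 4 spelled motifs, and no matches of different motifs overlapped. The CCAAT box was found in 22 of the 28 promoters (78.6%), against 35.1% of the promoters of 8808 tested protein-coding genes and 34.0% of all 33469 promoters in the table. It occurred 40 times in these 22 promoters, 37 times between 25 and 200 bases before the start, and more than once in 10 of them. The GC box, GGGCGG, was found in 20 of the 28 (71.4%; 58.5% of tested genes, 30.5% of all), and the E-box CACGTG in 4 of the 28 (14.3%; 8.15% of tested genes, 5.59% of all), those of Sc5d, Insig1, Elovl5 and Scap. The sterol regulatory element, spelled TCACNCCAC, was found in 0 of the 28, against 1.01% of tested genes and 0.974% of all promoters, so these exact letters were absent from these windows. These matches describe the sequences and are not binding data.

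The last 200 bases before the start are shown for the 7 genes that were called in ZF against ZL and whose start in the promoter table is also the outermost start of the gene, with every CCAAT box, on either strand, and every E-box in capitals. The stretches lie at chr17:66547525-66547724 (minus strand) for Idi1, chr2:176804817-176805016 (minus strand) for Fdps, chr16:29746913-29747112 (plus strand) for Msmo1, chr8:51538278-51538477 (minus strand) for Sc5d, chr1:208444234-208444433 (plus strand) for Dhcr7, chr10:45529165-45529364 (minus strand) for Srebf1 and chr8:96540245-96540444 (minus strand) for Me1, each read 5′ to 3′ towards the gene.
Idi1: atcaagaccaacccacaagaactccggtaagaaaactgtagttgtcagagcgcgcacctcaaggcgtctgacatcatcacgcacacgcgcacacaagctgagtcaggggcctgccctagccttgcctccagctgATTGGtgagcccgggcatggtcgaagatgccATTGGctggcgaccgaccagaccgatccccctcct
Fdps: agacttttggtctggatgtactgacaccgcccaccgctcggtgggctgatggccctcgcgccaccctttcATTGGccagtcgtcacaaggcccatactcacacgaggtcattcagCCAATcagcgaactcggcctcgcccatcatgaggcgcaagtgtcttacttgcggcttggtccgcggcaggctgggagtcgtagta
Msmo1: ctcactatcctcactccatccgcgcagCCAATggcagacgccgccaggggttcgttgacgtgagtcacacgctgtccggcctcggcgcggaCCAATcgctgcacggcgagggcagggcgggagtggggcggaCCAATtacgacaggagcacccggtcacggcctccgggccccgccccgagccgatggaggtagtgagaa
Sc5d: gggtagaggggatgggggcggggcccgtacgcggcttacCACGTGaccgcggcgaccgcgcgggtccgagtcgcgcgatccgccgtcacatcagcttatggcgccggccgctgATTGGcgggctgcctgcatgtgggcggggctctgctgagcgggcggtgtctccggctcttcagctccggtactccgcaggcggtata
Dhcr7: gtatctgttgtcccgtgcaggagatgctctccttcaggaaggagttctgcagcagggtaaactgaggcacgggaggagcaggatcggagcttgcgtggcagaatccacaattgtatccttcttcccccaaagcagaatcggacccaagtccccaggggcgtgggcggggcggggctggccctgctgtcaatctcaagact
Srebf1: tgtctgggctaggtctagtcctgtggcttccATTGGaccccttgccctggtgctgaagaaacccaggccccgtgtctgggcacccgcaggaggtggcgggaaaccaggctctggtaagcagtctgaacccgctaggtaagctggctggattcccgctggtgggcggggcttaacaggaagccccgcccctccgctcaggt
Me1: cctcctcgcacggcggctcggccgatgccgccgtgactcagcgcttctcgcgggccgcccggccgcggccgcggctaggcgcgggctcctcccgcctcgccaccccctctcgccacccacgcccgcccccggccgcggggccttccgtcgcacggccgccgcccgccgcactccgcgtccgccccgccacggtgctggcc
Msmo1 carries 3 CCAAT boxes, Idi1 and Fdps 2 each, Sc5d and Srebf1 1 each. Dhcr7 and Me1, which had the largest falls of these 7, carry none in this stretch. Of the 16 genes called in ZF against ZL that are in the table, 11 have a CCAAT box within 250 bases, as have 11 of the 12 that were not called.

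The first question was how the synthesis genes of the cortex differ between obese and lean rats. In ZF against ZL, 18 of the 37 genes were called (48.6%), against 18.8% of all genes tested. Of these, 15 were lower in ZF (40.5%, against 10.6% of all genes) and 3 were higher (8.11%, against 8.19%). The lower genes were Hmgcs1, Idi1, Fdps, Sqle, Msmo1, Sc5d, Dhcr7, Srebf1, Insig1, Acss2, Me1, Elovl1, Fads1, Fads2 and Gpam, and the higher genes were Scap, Acly and Elovl6. The median log2 fold change was -0.25, beside -0.01 over all genes tested, and 32 of the 37 values were below 0. At an unadjusted p under 0.05 there were 22 of the 37, against 33.1% of all genes. In 15 of the 37 genes (40.5%) the 4 ZF rats and the 4 ZL rats did not overlap. That held for 19.0% of all genes. The median difference from the ZL mean over the 37 genes was -0.24, -0.22, -0.24 and -0.38 on the log2 scale in ZF rats 2, 3, 4 and 5, and 0.07, -0.02, -0.13 and 0.10 in ZL rats 1 to 4. In this median each ZF rat was below each ZL rat, whereas in some smaller groups of these genes, by role, the rats overlapped. The split between higher and lower calls depended on the scaling: 43.6% of all 2185 calls were higher as reported and 53.9% with quantile normalization. It was 78.0% with Rn28s and Rn45s taken out and each rat then scaled to the same total, which moved the median of all genes to 0.11. That setting also set aside the authors' scaling between libraries. The part of the 2 transcripts alone is therefore not shown, here or wherever their removal before scaling is named below. With quantile normalization 3 of the 37 genes were higher and 12 lower, beside 9.48% and 8.10% of all genes. Without Rn28s and Rn45s 4 were higher and 11 lower, beside 18.9% and 5.35% of all genes. The median of the 37 lay 0.239 below that of all genes as reported and 0.233 below it without Rn28s and Rn45s.

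**Figure D1:**
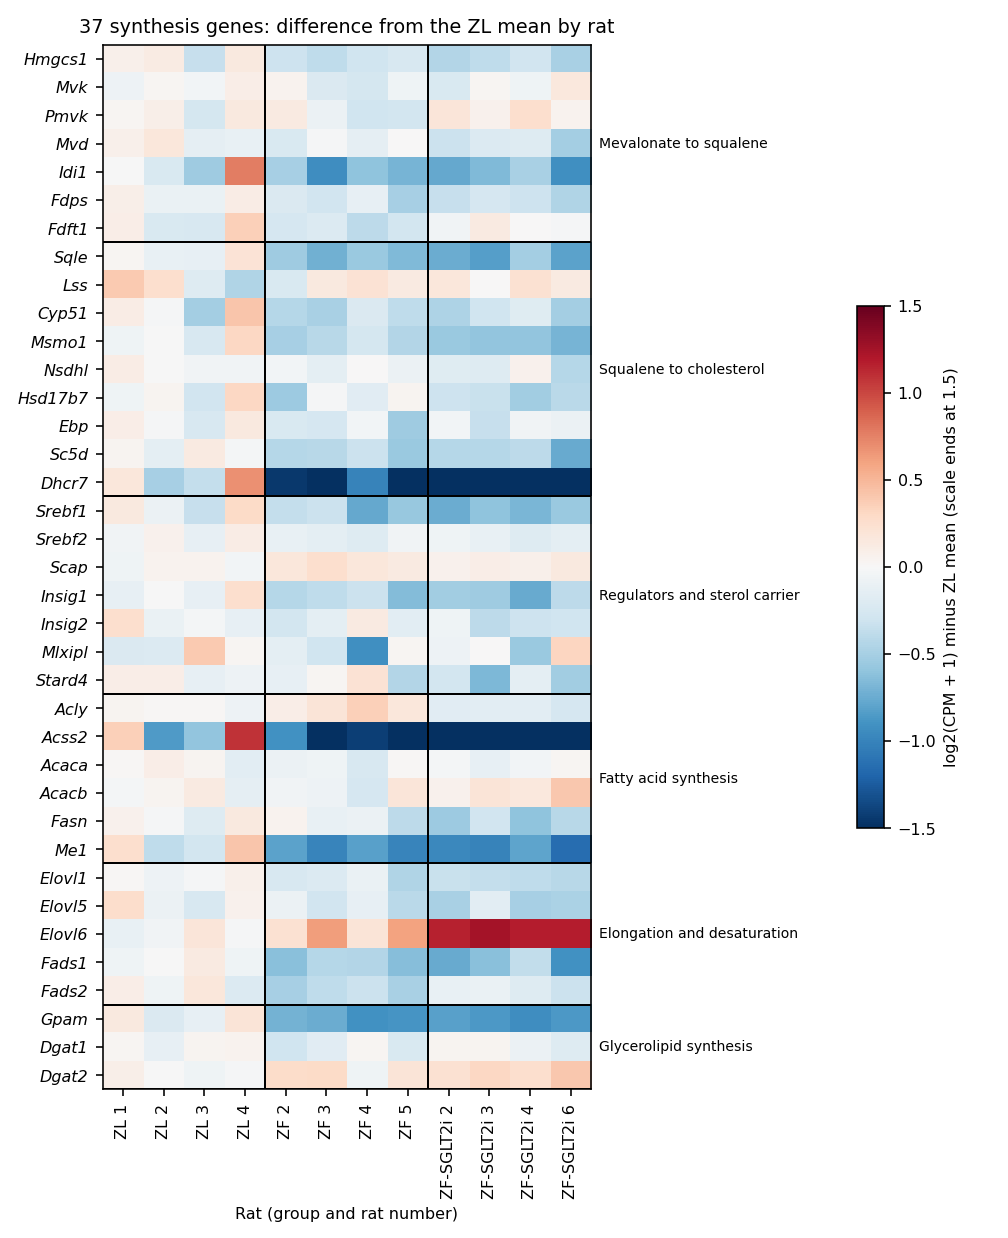
Difference of each rat's log2(CPM + 1) from the ZL mean of the same gene (colour, blue lower and red higher, ending at 1.5 in both directions) for the 37 synthesis genes (rows, by role) in 12 rats (columns, by group). Dhcr7, Acss2, Me1 and Gpam are blue in all 8 fatty rats, and Elovl6 is red in them and deepest in the 4 ZF-SGLT2i rats.

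In the steps from acetyl-CoA units to squalene, 3 of 7 genes were lower in ZF and none was higher, with a median log2 fold change of -0.28 and all 7 values below 0. Hmgcs1 makes the building block of mevalonate. The 12 rats had 56.7, 58.7, 42.2 and 59.9 CPM in ZL, 43.3, 41.3, 43.7 and 45.4 in ZF and 39.6, 41.2, 43.9 and 38.1 in ZF-SGLT2i. Its ZF values lay close together, and only ZL rat 3 was as low as the ZF rats (log2 fold change -0.31, SE 0.10, adjusted p = 0.0394). Idi1 interconverts the activated isoprene units. Its levels were 24.3, 20.7, 16.6 and 42.4 CPM in ZL, 17.1, 12.3, 15.7 and 14.6 in ZF and 13.9, 15.0, 17.1 and 12.5 in ZF-SGLT2i. It fell by 37.7% in ZF on the fitted scale (log2 fold change -0.68, SE 0.21, adjusted p = 0.0385). ZL rat 4 stood far above the other lean rats, and without it the log2 fold change was -0.43. Fdps joins these units into farnesyl diphosphate. The values were 40.6, 35.7, 35.7 and 41.6 CPM in ZL, 32.9, 31.3, 35.0 and 26.8 in ZF and 29.9, 31.9, 30.6 and 27.8 in ZF-SGLT2i. All ZF values lay below all ZL values (log2 fold change -0.28, SE 0.09, adjusted p = 0.0359). These 3 calls were the least secure of the lower genes: the adjusted p passed 0.05 when any 1 of 9 rats was left out for Hmgcs1 (0.0514 to 0.103), of 7 for Idi1 (0.0502 to 0.107) and of 5 for Fdps (0.0545 to 0.0998). The rats were ZL 1, 2 and 4, ZF 2 to 5 and ZF-SGLT2i 2 and 3 for Hmgcs1, ZL 1 and 4, ZF 2, 3 and 5 and ZF-SGLT2i 2 and 3 for Idi1, and ZL 1 and 4 and ZF 2, 3 and 5 for Fdps. All 3 calls were also lost in a fit of the 2 groups alone and with Rn28s and Rn45s taken out before scaling, and those of Hmgcs1 and Fdps with quantile normalization.

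The other 4 genes of these steps were not called. Fdft1, the squalene synthase that commits the pathway to sterols, averaged 114 ± 23.6, 92.1 ± 5.12 and 113 ± 6.60 CPM in ZL, ZF and ZF-SGLT2i (log2 fold change -0.28, SE 0.11, adjusted p = 0.0907 in ZF against ZL). It was called lower without ZL rat 2 or without ZL rat 3 (adjusted p = 0.0379 and 0.0408), and without ZL rat 4 its log2 fold change was -0.16 (adjusted p = 0.218). The kinases Mvk and Pmvk and the decarboxylase Mvd, which together turn mevalonate into the first isoprene unit, had log2 fold changes of -0.12, -0.13 and -0.10.

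In the steps from squalene to cholesterol, 4 of 9 genes were lower in ZF and none was higher, with a median log2 fold change of -0.38. Sqle is the epoxidase that puts oxygen on squalene and is a rate-limiting enzyme of the pathway. The levels were 22.4, 20.3, 20.0 and 25.4 CPM in ZL, 14.9, 12.9, 14.6 and 13.4 in ZF and 12.7, 11.9, 15.1 and 12.1 in ZF-SGLT2i. The lowest ZL rat lay above the highest ZF rat (log2 fold change -0.62, SE 0.10, adjusted p = 0.00125). Msmo1 removes methyl groups from the sterol ring. The 12 rats had 34.5, 36.2, 30.6 and 45.0 CPM in ZL, 25.4, 26.9, 30.1 and 26.6 in ZF and 24.4, 23.7, 23.7 and 22.0 in ZF-SGLT2i. The groups again did not overlap, by a narrow margin between ZF rat 4 and ZL rat 3 (log2 fold change -0.40, SE 0.10, adjusted p = 0.0136). Sc5d is a sterol desaturase. The values were 85.2, 74.4, 90.4 and 80.8 CPM in ZL, 61.0, 61.3, 65.6 and 55.7 in ZF and 60.8, 60.9, 62.4 and 48.6 in ZF-SGLT2i, with all lean rats above all fatty rats (log2 fold change -0.43, SE 0.09, adjusted p = 0.00454). Dhcr7 makes cholesterol from its last precursor in one branch of the pathway. Its values were 45.8, 28.3, 31.5 and 65.7 CPM in ZL, 14.3, 13.4, 19.7 and 12.6 in ZF and 12.8, 13.4, 10.8 and 8.03 in ZF-SGLT2i. It fell by 62.0% in ZF on the fitted scale, the largest change among the 16 sterol enzymes (log2 fold change -1.40, SE 0.23, adjusted p = 0.00171). The lean rats spread from 28.3 to 65.7 CPM, rats 1 and 4 above rats 2 and 3.

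The 5 uncalled genes of this stretch did not all point down. Cyp51, the demethylase of lanosterol, averaged 43.8 ± 11.3, 32.7 ± 2.76 and 33.0 ± 3.57 CPM in the 3 groups (log2 fold change -0.38, SE 0.15, adjusted p = 0.0949), and it was called lower without ZL rat 3, its lowest lean rat (adjusted p = 0.00805), and with array quality weights (0.0209). Without ZL rat 4 its log2 fold change was -0.24 (adjusted p = 0.243). Lss, which folds the squalene epoxide into lanosterol, was the only gene of the 9 with a value above 0 (log2 fold change 0.07, SE 0.16, adjusted p = 0.800), and its lean rats ranged from 21.2 to 38.7 CPM. Nsdhl, Hsd17b7 and Ebp, which act on the sterol ring between these steps, had log2 fold changes of -0.07, -0.17 and -0.26.

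Among the 6 regulators and the sterol carrier, Srebf1 and Insig1 were lower and Scap was higher in ZF. Srebf1 encodes the factor best known for fatty acid synthesis. Its CPM values were 112, 94.7, 78.7 and 123 CPM in ZL, 78.1, 80.4, 58.5 and 67.2 in ZF and 59.6, 65.9, 62.1 and 67.8 in ZF-SGLT2i. Only ZL rat 3 lay within the range of the ZF rats (log2 fold change -0.51, SE 0.13, adjusted p = 0.0143). Insig1 is the sterol-sensitive anchor that is itself a target of these factors. Its levels were 46.8, 50.8, 46.8 and 61.0 CPM in ZL, 37.7, 39.0, 40.7 and 32.2 in ZF and 35.2, 34.9, 29.9 and 38.8 in ZF-SGLT2i. All ZF values lay below all ZL values (log2 fold change -0.44, SE 0.10, adjusted p = 0.00981). Scap is the escort protein. The levels were 119.7, 129.7, 130.2 and 122 CPM in ZL, 141, 149, 141 and 137 in ZF and 131, 134, 132 and 139 in ZF-SGLT2i. Its change was small but without overlap (log2 fold change 0.18, SE 0.05, adjusted p = 0.0233), and its adjusted p passed 0.05 without ZL rat 1, ZL rat 4, ZF rat 2 or ZF rat 3 (0.0504 to 0.0765) and in a fit of the 2 groups alone (0.0566).

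Srebf2 encodes the factor best known for cholesterol synthesis. The 12 rats had 162, 177, 155 and 183 CPM in ZL, 156, 153, 148 and 163 in ZF and 161, 156, 148 and 153 in ZF-SGLT2i. The groups overlapped and the gene was not called (log2 fold change -0.12, SE 0.06, adjusted p = 0.170; 95% interval -0.25 to 0.01). Insig2 is the second anchor protein. The values were 11.9, 9.10, 9.64 and 8.93 CPM in ZL, 7.96, 8.82, 10.9 and 8.74 in ZF and 9.33, 7.27, 7.75 and 7.80 in ZF-SGLT2i, with overlapping groups (log2 fold change -0.11, SE 0.12, adjusted p = 0.574). Mlxipl encodes the glucose-responsive factor of lipid synthesis. Its values were 73.0, 73.3, 112 and 86.3 CPM in ZL, 76.5, 68.9, 44.4 and 86.7 in ZF and 80.7, 85.5, 57.5 and 106 in ZF-SGLT2i. Its rats differed widely within each group, so that a 95% interval from -0.78 to 0.12 was left for the log2 fold change of -0.33. Stard4 carries cholesterol between membranes. Its CPM values were 21.8, 21.8, 18.5 and 19.2 CPM in ZL, 18.5, 20.7, 23.7 and 14.8 in ZF and 16.6, 12.3, 18.2 and 13.8 in ZF-SGLT2i, with ZF rats on both sides of the lean range (log2 fold change -0.08, SE 0.14, adjusted p = 0.739).

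Among the 6 genes of fatty acid synthesis, Acss2 and Me1 were lower in ZF and Acly was higher. Acss2 turns acetate into acetyl-CoA in the cytosol and nucleus. Its levels were 484, 208, 249.8 and 798 CPM in ZL, 200.1, 103, 141 and 81.2 in ZF and 85.3, 88.6, 91.0 and 78.8 in ZF-SGLT2i. It had the largest change of the 37 genes (log2 fold change -1.59, SE 0.35, adjusted p = 0.00811). Its lean rats also spread widely, from 208 CPM in rat 2 to 798 CPM in rat 4, yet the highest ZF rat stayed below the lowest ZL rat. Me1 is the malic enzyme that supplies NADPH. The levels were 116, 74.6, 80.4 and 131 CPM in ZL, 55.6, 48.7, 55.0 and 48.6 in ZF and 49.4, 48.3, 56.2 and 43.6 in ZF-SGLT2i. It fell by 46.4% on the fitted scale with no overlap (log2 fold change -0.90, SE 0.15, adjusted p = 0.00169). Acly cleaves citrate into acetyl-CoA. The 12 rats had 161, 158, 158 and 149 CPM in ZL, 168, 179.5, 201 and 176 in ZF and 139, 139.9, 141 and 132 in ZF-SGLT2i. It rose in ZF, all 4 rats lying above the lean range (log2 fold change 0.21, SE 0.06, adjusted p = 0.0252), though its adjusted p was 0.0628 without ZL rat 4 and 0.0554 without ZF rat 3, and 0.0607 in a fit of the 2 groups alone. The 2 genes that supply acetyl-CoA to this pathway thus went in opposite directions.

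The enzymes that build the chain itself did not pass the test. Fasn is the fatty acid synthase. The values were 139, 131, 116 and 147 CPM in ZL, 138, 122, 125 and 101 in ZF and 90.4, 108, 86.7 and 99.2 in ZF-SGLT2i. Its ZF and ZL rats overlapped (log2 fold change -0.14, SE 0.10, adjusted p = 0.373; 95% interval -0.35 to 0.08). Acaca and Acacb, the carboxylases that make malonyl-CoA, averaged 56.3 ± 4.42, 52.8 ± 3.88 and 54.6 ± 2.39 CPM and 54.3 ± 4.25, 52.5 ± 6.63 and 62.9 ± 6.45 CPM in ZL, ZF and ZF-SGLT2i, with log2 fold changes of -0.09 (95% interval -0.24 to 0.06) and -0.05 (95% interval -0.25 to 0.15) in ZF against ZL.

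In the group of elongation and desaturation, 4 of 5 genes were called, 3 lower and 1 higher. Fads1 is a desaturase of long polyunsaturated fatty acids. Its values were 159, 164, 181 and 159 CPM in ZL, 107, 123, 121 and 106 in ZF and 97.7, 107, 128 and 87.9 in ZF-SGLT2i. Each ZF rat lay below each ZL rat (log2 fold change -0.53, SE 0.10, adjusted p = 0.00307). Fads2 is the desaturase that starts the same route. Its CPM values were 102, 91.6, 108 and 83.0 CPM in ZL, 67.5, 73.6, 76.5 and 68.2 in ZF and 88.8, 89.6, 83.7 and 76.6 in ZF-SGLT2i, also without overlap (log2 fold change -0.42, SE 0.08, adjusted p = 0.00430). Elovl1 is an elongase of saturated very long chains. Its levels were 149.6, 139, 146 and 156 CPM in ZL, 125, 128, 138 and 108 in ZF and 117, 115, 113 and 111 in ZF-SGLT2i. Its groups did not overlap by a narrow margin (log2 fold change -0.25, SE 0.07, adjusted p = 0.0228), and its adjusted p passed 0.05 without ZL rat 1, ZL rat 4, ZF rat 2 or ZF rat 5 (0.0504 to 0.0598), in a fit of the 2 groups alone, and with both other scalings named above. Elovl5 is an elongase of polyunsaturated chains. The levels were 47.9, 37.3, 33.6 and 41.8 CPM in ZL, 37.5, 32.4, 36.6 and 30.0 in ZF and 28.1, 35.5, 27.9 and 28.4 in ZF-SGLT2i, with overlapping ZF and ZL rats (log2 fold change -0.22, SE 0.11, adjusted p = 0.187). Elovl6 lengthens the palmitate made by Fasn. The 12 rats had 18.8, 19.5, 23.1 and 20.0 CPM in ZL, 24.0, 31.8, 23.4 and 31.3 in ZF and 46.4, 49.4, 47.1 and 47.3 in ZF-SGLT2i. It rose in ZF (log2 fold change 0.41, SE 0.10, adjusted p = 0.0136), with the lowest ZF rat just above the highest ZL rat.

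Of the 3 genes that join fatty acids to glycerol, 1 was lower. Gpam is the mitochondrial acyltransferase that takes the first step. The values were 53.2, 41.4, 44.0 and 55.3 CPM in ZL, 29.1, 28.4, 25.1 and 25.7 in ZF and 27.0, 25.9, 24.9 and 26.0 in ZF-SGLT2i. Every ZF rat lay below every ZL rat, and this gene had the smallest adjusted p of the 37 (log2 fold change -0.81, SE 0.09, adjusted p = 0.000103). The acyltransferases of the last step to triglyceride were not called: Dgat1 averaged 37.7 ± 2.06, 33.6 ± 3.42 and 36.5 ± 2.93 CPM in the 3 groups (log2 fold change -0.17, SE 0.08, adjusted p = 0.172), and Dgat2 was at 46.4, 43.5, 41.8 and 43.1 CPM in ZL, 53.0, 53.4, 41.6 and 50.3 in ZF and 51.3, 54.4, 52.2 and 58.1 in ZF-SGLT2i (log2 fold change 0.17, SE 0.08, adjusted p = 0.140). Dgat2 was called higher without ZF rat 4, its one low ZF rat (adjusted p = 0.0138), and with Rn28s and Rn45s taken out before scaling (0.0228), with adjusted p up to 0.319 elsewhere.

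**Figure D2:**
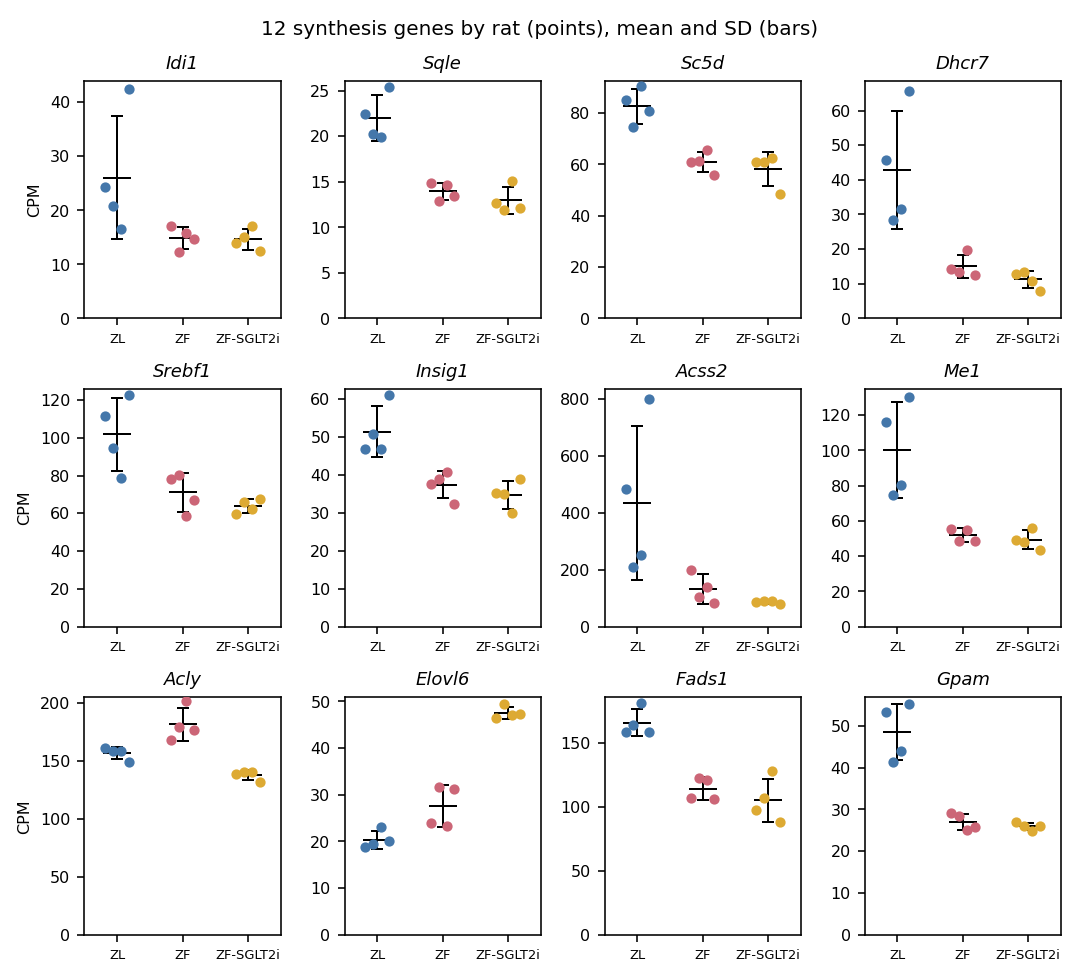
CPM (vertical axes, from 0) of 12 synthesis genes in each rat (points) of the ZL, ZF and ZF-SGLT2i groups, with mean and SD (bars, n = 4). In Sqle, Sc5d, Dhcr7, Me1, Fads1 and Gpam all lean rats lie above both fatty groups, and in Elovl6 the ZF-SGLT2i rats (46.4 to 49.4 CPM) lie above all others.

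The lean rats were not alike in these genes. In 14 of the 37 genes ZL rats 1 and 4 both lay above ZL rats 2 and 3, among them Idi1, Dhcr7, Srebf1, Acss2, Me1 and Gpam. Of the 16 sterol enzymes, ZL rat 4 was the highest lean rat in 12 and ZL rat 3 the lowest in 10. Without ZL rat 4, 12 of the 37 genes were called in ZF against ZL, 1 higher and 11 lower, beside 15.2% of all genes (6.68% higher, 8.56% lower). Without ZL rat 3, 20 were called, 3 higher and 17 lower, beside 15.3% of all genes (6.28% higher, 8.98% lower). Of the 15 lower genes, 7 stayed called in every one of 23 other analyses described in the closing section: Dhcr7, Sqle, Sc5d, Me1, Fads1, Fads2 and Gpam. Msmo1, Srebf1, Insig1 and Acss2 stayed called in all but the fit with the rat number as a block. Of the 3 higher genes, Elovl6 also lost its call in that fit alone (adjusted p = 0.0709).

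The next question was what canagliflozin changed in the fatty rats. In ZF-SGLT2i against ZF, 2 of the 37 genes were called (5.41%), against 3.15% of all genes tested, 1 higher (2.70%, against 1.39%) and 1 lower (2.70%, against 1.75%). The share of called members is thus near that of all genes, and the description below rests on the single genes. At an unadjusted p under 0.05 there were 8 of the 37, against 17.2% of all genes. The median log2 fold change of the 37 was -0.08, beside 0.01 over all genes. When 1 rat was left out it lay between -0.107 (without ZF rat 5) and -0.0372 (without ZF-SGLT2i rat 6). Groups did not overlap in 5 of the 37 genes (13.5%, against 11.2% of all genes), namely Fdft1, Msmo1, Acly, Elovl6 and Fads2.

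Elovl6, the elongase of palmitate that was already higher in ZF, was higher again in the treated rats. Its means were 20.4 ± 1.93, 27.6 ± 4.53 and 47.5 ± 1.29 CPM in ZL, ZF and ZF-SGLT2i, and the 4 treated rats lay between 46.4 and 49.4 CPM, above all other rats (log2 fold change 0.78, SE 0.10, adjusted p = 0.00112). Against ZL the difference was 128% on the fitted scale (log2 fold change 1.19, SE 0.10, adjusted p = 6.03e-06). Acly, the citrate cleavage enzyme, was lower. Its means were 157 ± 5.41, 181 ± 14.1 and 138 ± 4.12 CPM, and all treated rats lay below all ZF rats (log2 fold change -0.39, SE 0.06, adjusted p = 0.00264) and also below all ZL rats (log2 fold change -0.18, SE 0.06, adjusted p = 0.0326). Both calls against ZF held in all 23 other analyses. The difference of Acly between ZF-SGLT2i and ZL lost its call without any 1 of ZL rats 1, 2 and 3 or ZF-SGLT2i rats 2, 3 and 6 (adjusted p 0.0588 to 0.0935), with quantile normalization (0.231), and when Rn28s and Rn45s were taken out before scaling (0.325).

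**Figure D3:**
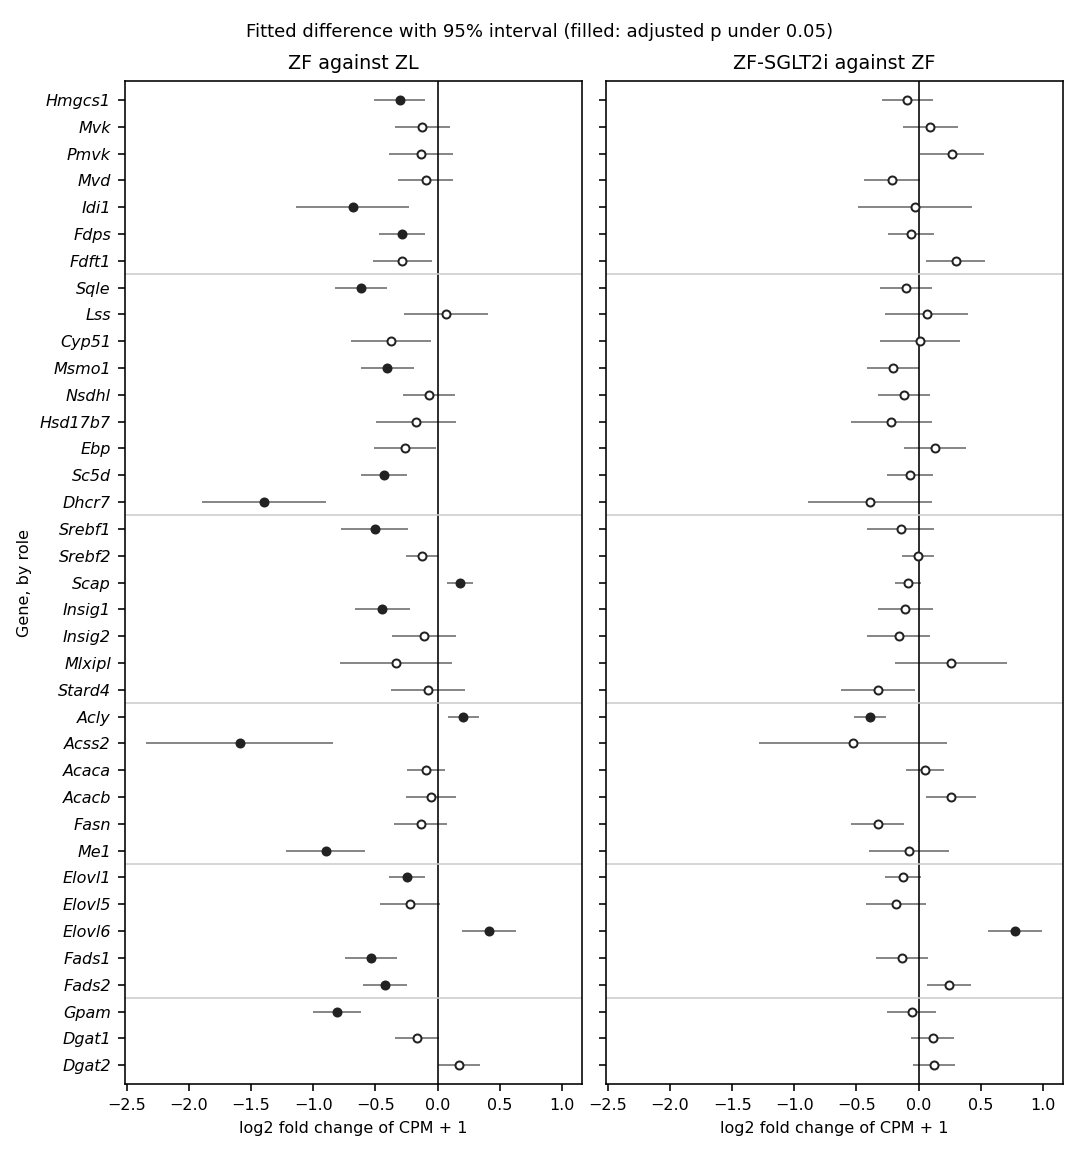
Log2 fold change of CPM + 1 (horizontal axes) with its 95% interval for the 37 synthesis genes (rows, grouped by role) in ZF against ZL (left) and ZF-SGLT2i against ZF (right), filled where the adjusted p was under 0.05. On the left 15 filled points lie below 0 and 3 above, and on the right Elovl6 (0.78) and Acly (-0.39) are the filled points.

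None of the 15 genes that were lower in ZF was called in ZF-SGLT2i against ZF. These comparisons share the ZF rats, so their values are set side by side and not related to each other. Dhcr7 averaged 15.0 CPM in ZF and 11.2 CPM in ZF-SGLT2i (log2 fold change -0.39, SE 0.23, adjusted p = 0.419), a level that ranged from 8.03 to 13.4 CPM in the treated rats and did not reach the lean range. Acss2 averaged 131 and 85.9 CPM (log2 fold change -0.53, SE 0.35, adjusted p = 0.479), and here the treated rats were the most alike of the 3 groups. For Sqle the 95% interval of the log2 fold change was -0.31 to 0.11, for Gpam -0.25 to 0.14 and for Me1 -0.40 to 0.24. Fads2 had the only value above 0 among the 15, the others lying below 0 (log2 fold change 0.24, SE 0.08, adjusted p = 0.138). Its treated rats lay above all ZF rats and within the lean range apart from rat 6, and it was called with array quality weights (adjusted p = 0.0447).

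A further 3 genes that were not called passed the threshold in some of the other analyses. Fasn, the fatty acid synthase, was at 90.4, 108, 86.7 and 99.2 CPM in the treated rats, with only ZF rat 5 inside that range (log2 fold change -0.33, SE 0.10, adjusted p = 0.0949). It was called lower without ZF rat 5 (adjusted p = 0.0222), with array quality weights and with DESeq2 (0.0479 and 0.0413), with adjusted p up to 0.241 in the other settings. Fdft1, the squalene synthase, averaged 92.1 CPM in ZF and 113 CPM in ZF-SGLT2i with no overlap (log2 fold change 0.30, SE 0.11, adjusted p = 0.174). It was called higher without ZL rat 4 (adjusted p = 0.0485) and in a fit of the 2 groups alone (0.0225), with adjusted p up to 0.357 elsewhere. Acacb, the carboxylase at the mitochondrion, averaged 52.5 and 62.9 CPM (log2 fold change 0.26, SE 0.09, adjusted p = 0.165), and was called higher without ZF rat 5 (adjusted p = 0.0492), with adjusted p up to 0.386 elsewhere.

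Treated fatty rats were also set against lean rats, a comparison that shares its groups with both others. In ZF-SGLT2i against ZL, 21 of the 37 genes were called (56.8%), against 27.4% of all genes, 19 lower (51.4%, against 15.0%) and 2 higher (5.41%, against 12.4%). The median log2 fold change was -0.34, beside -6.97e-05 over all genes. At an unadjusted p under 0.05 there were 26 of the 37, against 39.3% of all genes, and 20 genes (54.1%) did not overlap, against 28.0% of all genes. With Rn28s and Rn45s taken out before scaling, 72.4% of all calls were higher (45.3% otherwise), and 4 of the 37 genes were higher and 15 lower, beside 23.0% and 8.77% of all genes. Acss2 (-2.12), Dhcr7 (-1.79), Me1 (-0.98), Gpam (-0.87) and Sqle (-0.72) had the lowest log2 fold changes, with adjusted p of 0.000819, 0.000156, 0.000494, 3.02e-05 and 0.000207. Srebf1 was at 59.6 to 67.8 CPM in the treated rats, below all lean rats (log2 fold change -0.65, SE 0.13, adjusted p = 0.00222), and Insig1 was at 29.9 to 38.8 CPM, also below them (log2 fold change -0.55, SE 0.10, adjusted p = 0.00164).

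Some genes were called only in this comparison, which does not show that they differ between treated and untreated fatty rats. Fasn was lower (log2 fold change -0.47, SE 0.10, adjusted p = 0.00408) with no overlap, as was Stard4, the cholesterol carrier (log2 fold change -0.41, SE 0.14, adjusted p = 0.0443). Mvd, which was at 12.3, 13.1, 10.4 and 10.6 CPM in ZL, 9.68, 11.4, 10.4 and 11.6 in ZF and 9.05, 9.89, 9.96 and 7.80 in ZF-SGLT2i, was lower (log2 fold change -0.31, SE 0.10, adjusted p = 0.0409), and Elovl5 was lower with only ZF-SGLT2i rat 3 inside the lean range (log2 fold change -0.40, SE 0.11, adjusted p = 0.0175). Dgat2 was higher, all treated rats lying above the lean rats (log2 fold change 0.30, SE 0.08, adjusted p = 0.0123). The calls of Mvd, Stard4, Elovl5 and Idi1 were lost on leaving out single rats: any 1 of ZL 1 and 2, ZF 3 and ZF-SGLT2i 2, 3 and 6 for Mvd (adjusted p 0.0505 to 0.128), of ZL 1, 2 and 4, ZF 2 and 3 and ZF-SGLT2i 2, 3 and 6 for Stard4 (0.0515 to 0.135), of ZL 1 and ZF-SGLT2i 6 for Elovl5 (0.0505 to 0.0596), and of ZL 1 and ZF-SGLT2i 2 and 6 for Idi1 (0.0526 to 0.0721). Those of Mvd, Stard4 and Elovl5 were also lost with Rn28s and Rn45s taken out before scaling, and those of Mvd and Stard4 with no filter on low values. That of Mvd was lost in a fit of the 2 groups alone (0.062) and with DESeq2 (0.056) as well.

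Further genes around these pathways were taken from 2 lists, also drawn up by function with earlier results known. Of 26 tested genes of sterol synthesis, transport and control, 2 were lower and 3 higher in ZF against ZL (median -0.03), 0 were called in ZF-SGLT2i against ZF (3 at an unadjusted p under 0.05), and 1 was lower and 6 higher in ZF-SGLT2i against ZL. These are 19.2%, 0% and 26.9% of the list, beside 18.8%, 3.15% and 27.4% of all genes tested, so its shares are near or below the background and only single genes are described. Acat2 joins acetyl-CoA units at the start of the pathway. Its values were 20.1, 17.7, 18.6 and 20.1 CPM in ZL, 12.6, 16.2, 14.7 and 12.5 in ZF and 16.0, 14.6, 16.1 and 13.0 in ZF-SGLT2i. All lean rats lay above all fatty rats (log2 fold change -0.43, SE 0.10, adjusted p = 0.00988 in ZF against ZL). It was the gene called lower in ZF-SGLT2i against ZL (log2 fold change -0.34, SE 0.10, adjusted p = 0.0216), a call lost without ZL rat 1, ZL rat 4, ZF-SGLT2i rat 3 or ZF-SGLT2i rat 6 (adjusted p 0.0527 to 0.0732) and with Rn28s and Rn45s taken out before scaling (0.0702). Also lower in ZF was Tm7sf2, a sterol reductase (log2 fold change -0.60, SE 0.19, adjusted p = 0.0402). The call of Tm7sf2 was lost when any 1 of ZL rats 1 and 4, ZF rats 2 to 5 and ZF-SGLT2i rat 4 was left out (adjusted p 0.0515 to 0.119). It was also lost with Rn28s and Rn45s taken out before scaling (0.0695) and in a fit of the 2 groups alone (0.0693).

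The 3 sterol genes that were higher in ZF were Abca1, Abcg1 and Mylip. Abca1 is the exporter of cholesterol to apolipoprotein A-I. Its CPM values were 59.0, 53.8, 51.9 and 42.3 CPM in ZL, 87.7, 98.0, 67.4 and 80.6 in ZF and 94.6, 89.1, 79.0 and 82.7 in ZF-SGLT2i. All fatty rats lay above all lean rats (log2 fold change 0.67, SE 0.11, adjusted p = 0.00193). Abcg1 is an exporter to larger lipoproteins. Its levels were 34.0, 31.9, 26.6 and 21.3 CPM in ZL, 48.8, 53.1, 34.6 and 45.6 in ZF and 45.7, 45.5, 51.7 and 51.1 in ZF-SGLT2i (log2 fold change 0.66, SE 0.14, adjusted p = 0.00673). Mylip is the ubiquitin ligase that marks lipoprotein receptors for breakdown. The levels were 33.4, 31.5, 24.3 and 28.3 CPM in ZL, 38.2, 38.6, 35.0 and 41.1 in ZF and 39.7, 38.7, 39.5 and 39.1 in ZF-SGLT2i (log2 fold change 0.38, SE 0.09, adjusted p = 0.00978). In ZF-SGLT2i against ZF, Abca1, Abcg1 and Mylip had values of 0.06, 0.10 and 0.04, with adjusted p from 0.764 to 0.861. Soat1, which stores cholesterol as ester, and Npc1, which releases it from lysosomes, were higher in ZF-SGLT2i against ZL (0.37 and 0.36; adjusted p = 0.00697 and 0.00850) and not called in ZF against ZL (0.18 and 0.14). Mbtps1, the protease that makes the first cut in the sterol-regulated factors, was also higher in ZF-SGLT2i against ZL (log2 fold change 0.21, SE 0.06, adjusted p = 0.0198), a call lost without ZL rat 1, ZL rat 3, ZF-SGLT2i rat 2 or ZF-SGLT2i rat 6 (adjusted p 0.0514 to 0.0575).

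Of 31 tested genes of fatty acid and glycerolipid metabolism, 7 were lower and 2 higher in ZF against ZL (median -0.11), 2 were higher in ZF-SGLT2i against ZF, and 8 were lower and 6 higher in ZF-SGLT2i against ZL. These are 29.0%, 6.5% and 45.2% of the list, beside 18.8%, 3.15% and 27.4% of all genes tested. Scd2 is a desaturase that makes monounsaturated fatty acids. The 12 rats had 433, 424, 309 and 469 CPM in ZL, 265, 298, 219 and 263 in ZF and 268, 328, 245 and 368 in ZF-SGLT2i. It was lower in ZF with no overlap (log2 fold change -0.63, SE 0.15, adjusted p = 0.00978). Agpat3, which takes the step after Gpam, was lower too (log2 fold change -0.33, SE 0.06, adjusted p = 0.00259). Lpin2 is a phosphatidate phosphatase. The values were 154, 159, 150.0 and 116 CPM in ZL, 244, 274, 207 and 248 in ZF and 327, 325, 302 and 300.0 in ZF-SGLT2i, higher in ZF with no overlap (log2 fold change 0.75, SE 0.10, adjusted p = 0.000413) and highest in the treated rats, where the difference from ZF was not called (log2 fold change 0.37, SE 0.10, adjusted p = 0.0616). Slc25a10, the dicarboxylate carrier of mitochondria, was higher in ZF (log2 fold change 0.35, SE 0.06, adjusted p = 0.00179).

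Acsl1 activates fatty acids with coenzyme A. Its values were 274, 287, 284 and 212 CPM in ZL, 211, 245, 268 and 246 in ZF and 321, 317, 326 and 317 in ZF-SGLT2i. It rose in ZF-SGLT2i against ZF (log2 fold change 0.41, SE 0.09, adjusted p = 0.0309), and the call was lost when any 1 of ZF rats 2 and 3 or of the 4 treated rats was left out (adjusted p 0.0718 to 0.0958). The other gene called in that comparison was Tecr, the reductase of the elongation cycle in which Elovl6 works (log2 fold change 0.28, SE 0.06, adjusted p = 0.0192). Acot1, a thioesterase induced by fatty acid signals, Idh1, a source of NADPH, and Pnpla3, a lipase of fat droplets, were lower in ZF-SGLT2i against ZL (-0.60, -0.55 and -0.47; adjusted p = 0.00497, 0.0394 and 0.0405). The calls of Idh1 and Pnpla3 were lost when single rats were left out (ZL 1 and 3, ZF 3 and ZF-SGLT2i 3 and 6 for Idh1, adjusted p 0.0517 to 0.123, and ZL 1 and 4, ZF 3 and all 4 treated rats for Pnpla3, 0.0524 to 0.119). Both were also lost with Rn28s and Rn45s taken out before scaling (0.0699 and 0.0944). That of Idh1 was lost with quantile normalization (0.0701), and that of Pnpla3 in a fit of the 2 groups alone (0.0682).

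**Figure D4:**
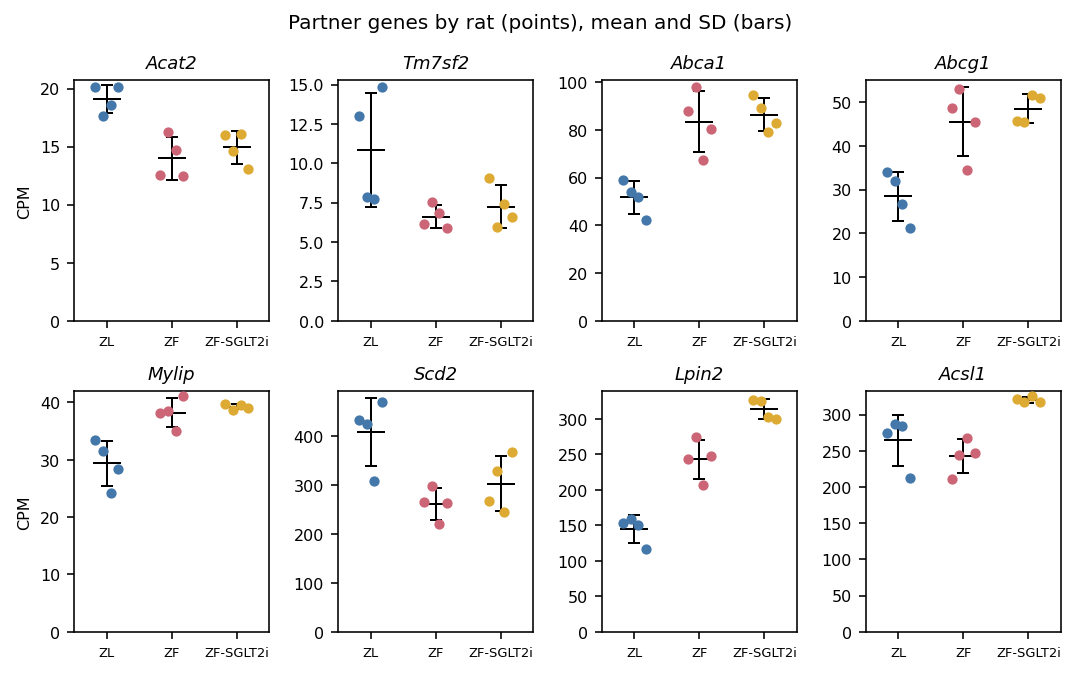
CPM (vertical axes, from 0) of 8 genes around the pathways in each rat (points) of the ZL, ZF and ZF-SGLT2i groups, with mean and SD (bars, n = 4). Acat2 is lower and Abca1, Abcg1 and Mylip are higher in all 8 fatty rats than in any lean rat, and Lpin2 is highest in the treated rats (300.0 to 327 CPM).

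Many of these genes are known to rise and fall over the day, and genes of the circadian clock differed strongly between lean and fatty rats. Of 14 tested clock genes, 8 were higher and 3 lower in ZF against ZL (78.6%, against 18.8% of all genes). In ZF-SGLT2i against ZF 0 were called (0%, against 3.15%), and 2 had an unadjusted p under 0.05. In ZF-SGLT2i against ZL 9 were higher and 3 lower (85.7%, against 27.4%). Arntl is the activator of the clock. Its CPM values were 51.4, 47.9, 42.8 and 30.4 CPM in ZL, 3.64, 2.31, 7.01 and 1.42 in ZF and 2.86, 1.82, 2.72 and 2.34 in ZF-SGLT2i (log2 fold change -3.38, SE 0.29, adjusted p = 1.12e-05). Dbp is an output factor of the clock. Its levels were 25.3, 37.5, 34.0 and 65.9 CPM in ZL, 250.4, 297, 182 and 286 in ZF and 296, 257, 334 and 299 in ZF-SGLT2i (log2 fold change 2.68, SE 0.22, adjusted p = 1.12e-05). Both groups of fatty rats were apart from the lean rats. Among the lean rats, ZL rat 4 had the lowest Arntl and the highest Dbp, and ZL rat 1, which with rat 4 was high in many synthesis genes, had the highest Arntl and the lowest Dbp. Npas2 (-2.27) was lower, and Ciart (2.28), Per3 (1.84), Per2 (1.20), Tef (1.23) and Nr1d2 (1.27) were higher in ZF (adjusted p 2.58e-05 to 0.00228). The part of the clock, or of the hour of collection, in the differences of the synthesis genes was not tested.

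Markers of the cell types of the cortex were examined beside these results. The tissue carried its defining tubule markers: Lrp2, the megalin of the proximal tubule, had the highest CPM of 8 such markers, at 5057 to 11361 CPM over the 12 rats. The 8 proximal tubule markers summed to 21348, 20592, 21914 and 19151 CPM in ZL, 16315, 16218, 19488 and 15024 in ZF and 16662, 14901, 15316 and 12666 in ZF-SGLT2i. Of these 8, Slc22a6 was higher and Aqp1 lower in ZF against ZL, Slc22a6 was lower in ZF-SGLT2i against ZF, and Lrp2 and Slc34a1 were lower in ZF-SGLT2i against ZL. All 6 markers of injured tubule were higher in ZF against ZL, 0 were called in ZF-SGLT2i against ZF (0 at an unadjusted p under 0.05), and 5 were higher in ZF-SGLT2i against ZL. They summed to 359.6, 372, 328 and 335 CPM in ZL, 2007, 748, 1473 and 643 in ZF and 1174, 1152, 817 and 479 in ZF-SGLT2i, with Spp1 the highest in CPM. ZF rats 2 and 4 had the highest sums.

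Of the 4 fibroblast markers, 2 were higher in ZF against ZL, 3 lower in ZF-SGLT2i against ZF and 2 lower in ZF-SGLT2i against ZL, with sums of 381, 373, 264 and 384 CPM in ZL, 619, 438, 597 and 379 in ZF and 303, 280.1, 281 and 275 in ZF-SGLT2i and the highest CPM in Col3a1 in ZL and in Pdgfrb in both fatty groups. Of 4 podocyte markers, 3 were higher in ZF against ZL, 0 called in ZF-SGLT2i against ZF and 3 higher in ZF-SGLT2i against ZL, with sums of 989, 1246, 939.7 and 1037 CPM in ZL, 1435, 1418, 1149 and 1546 in ZF and 1236, 1541, 1546 and 1588 in ZF-SGLT2i and Podxl the highest in CPM. Of 4 collecting duct markers, 0 were called in ZF against ZL, 1 was higher in ZF-SGLT2i against ZF and 2 in ZF-SGLT2i against ZL (sums of 1297, 1694, 1346 and 1066 CPM in ZL, 1351, 1584, 1131 and 1656 in ZF and 1837, 1952, 1954 and 2123 in ZF-SGLT2i; Slc4a1 the highest in CPM in ZL, Aqp2 in both fatty groups). Of 4 markers of thick limb and distal tubule, 0 were called in the first 2 comparisons, and Slc12a3 was higher and Umod lower in ZF-SGLT2i against ZL (sums of 6614, 6510.1, 6246 and 7273 CPM in ZL, 7656, 6706, 6358 and 7075 in ZF and 6120.1, 6925, 6991 and 6701 in ZF-SGLT2i; Umod the highest in CPM in ZL and ZF, Slc12a3 in ZF-SGLT2i). None of the 4 endothelial markers (group means of their sum 293, 349 and 336 CPM in ZL, ZF and ZF-SGLT2i; Kdr the highest in CPM) and none of the 4 tested macrophage markers (49.9, 66.0 and 56.4 CPM with the untested Cd163 included; Csf1r the highest in CPM) was called in any comparison. Their part in the differences of the synthesis genes was not tested.

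Markers of adipose tissue, adrenal cortex, liver and blood were also examined. Of the 6 adipocyte markers, Lep and Retn had no value, Plin1 was at most 0.446 CPM and Cfd at most 0.402 CPM, while Adipoq was at 13.3, 17.4, 13.3 and 11.8 CPM in ZL, 12.2, 11.8, 8.80 and 11.1 in ZF and 11.9, 14.3, 15.1 and 15.7 in ZF-SGLT2i, not called in any comparison. Cidec is a protein of fat droplets that other cells also make. The levels were 25.4, 7.02, 10.2 and 45.8 CPM in ZL, 9.78, 1.80, 4.44 and 0.437 in ZF and 3.24, 4.24, 2.72 and 1.78 in ZF-SGLT2i. It was lower in ZF than in ZL (log2 fold change -2.22, SE 0.58, adjusted p = 0.0187), with ZL rats 1 and 4 the highest, as in Acss2 and Dhcr7, and it made up most of the fall of the adipocyte sum, 38.9, 25.0, 23.6 and 57.8 CPM in ZL, 22.3, 13.6, 13.6 and 12.0 in ZF and 15.4, 18.7, 18.3 and 18.2 in ZF-SGLT2i. The 4 adrenal markers with values summed to means of 2.16, 1.13 and 1.95 CPM in ZL, ZF and ZF-SGLT2i, with Cyp21a1 the highest in CPM in ZL and ZF and Star in ZF-SGLT2i, the hepatocyte markers Alb and Serpina1 to 0.442, 0.560 and 1.83 CPM, with Serpina1 higher in ZF-SGLT2i against ZF (log2 fold change 1.00, SE 0.20, adjusted p = 0.0151) and against ZL, and the 3 blood markers to 2.17, 8.11 and 13.6 CPM, with Hba1 the highest in CPM, with 0 of 2 tested called.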

How the data were processed

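Renal cortex RNA of 12 rats (4 ZL, 4 ZF, 4 ZF-SGLT2i) was sequenced with paired ends after ribosomal RNA depletion with a kit that keeps the strand. The authors deposited 1 signal value per gene and rat for 13151 genes. Per the submitters' processing notes the tools were Trimmomatic 0.38, RSEM 1.3.0, Bowtie2 and edgeR with the rn6 build, roles not stated. Each deposited signal value was a whole read number times a constant of the rat, equal to CPM with edgeR's TMM factors (largest relative gap 1.11e-15), and 100.0% of values came out whole within 0.001 reads. Reads shared by similar genes could not be separated here. Chi-square per gene between rats of a group was 5.63 to 52.5, so all 12 libraries were counted as separate. Replicates are single rats by their labels.

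Genes at 1 or more in at least 4 rats (11633) were fitted with limma 3.58.1 (R 4.3.3) on log2(value + 1), all 3 groups together, eBayes with trend, two-sided, Benjamini-Hochberg over all genes tested. The alternatives used edgeR 4.0.16 and DESeq2 1.42.0 on the recovered reads, other scalings and filters, and fits without each rat. On those reads edgeR called 2180 genes in ZF against ZL, 368 between treated and untreated ZF, and 3216 between treated ZF and ZL. The fit was checked on simulated data, and the outcome of that check is not given here. The 37 genes, the partner, clock and marker lists and the tests were chosen with earlier results of these data known. Named are all 37 genes, the called partner and clock genes with the largest changes (at most 8 per list, Tecr besides, chosen after their values were seen) and the markers. Marker lists were adipocyte, adrenal cortex, podocyte, collecting duct, proximal tubule, thick limb with distal tubule, injured tubule, endothelium, macrophage, fibroblast, hepatocyte and blood. Some listed genes are not reported here and are left out of the counts of their lists.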

Additional observations from a re-analysis of the deposited data

Results flagged for a closer look

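Single rats that stood apart from the other 3 of their group were looked for by Dixon's test in 339 groups of 4 values, where chance alone gives about 16.9 such rats, and 18 were found. Among the synthesis genes these were Sc5d in ZF-SGLT2i rat 6 (48.6 CPM, the others 60.8 to 62.4), Elovl5 in ZF-SGLT2i rat 3 (35.5 CPM, the others 27.9 to 28.4) and Dgat1 in ZL rat 2 (34.7 CPM, the others 38.5 to 39.0). Among the partner and clock genes they were Soat1 in ZF rat 3 (76.3 CPM), Acsl1 in ZL rat 4 (212 CPM, the others 274 to 287) and Tef in ZL rat 4 (149 CPM, the others 89.1 to 98.7). ZL rat 4 was also low in the proximal tubule transporters Slc22a6 (525 CPM, the others 707 to 726) and Slc22a8 (484 CPM, the others 824 to 878).

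Among the podocyte markers, ZL rat 2 was high in Nphs1 (173 CPM) and Synpo (157 CPM), and ZF-SGLT2i rat 2 was low in Nphs1 (173 CPM) and Podxl (881 CPM). The same treated rat was high in the macrophage marker Adgre1 (31.7 CPM, the others 6.94 to 10.8). It was also at 0 CPM in Alb, where the others had 0.101 to 0.111 CPM. Those values are 1 read each, so this flag rests on single reads. The remaining ones were Col1a1 in ZL rat 3 (54.3 CPM), Vim in ZF rat 2 (184 CPM), Spp1 in ZL rat 2 (178 CPM) and Plin1 in ZF-SGLT2i rat 6 (0.446 CPM, which is 4 reads).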

How the results depend on the processing

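Over 23 other analyses (11 settings and 12 fits without 1 rat), 97 results of single genes gave 2225 values, of which 2039 kept their direction and their side of the threshold, 165 lost the call, 21 gained one and 0 changed direction. No call was lost or gained with a pseudocount of 0.1, a mean of at least 10 (where 6 results of genes with lower means gave no value), median ratio scaling or edgeR. One setting took out Rn28s and Rn45s and also replaced the authors' scaling between libraries with a scaling to equal totals. It moved the median of the 37 genes from -0.25 to -0.12 in ZF against ZL, where all genes moved to 0.11. In ZF-SGLT2i against ZL it moved the median of the 37 from -0.34 to -0.23, and all genes moved to 0.106. The separate parts of the removal and of the scaling were not tested. Without ZF rat 4, 56.4% of all calls in ZF-SGLT2i against ZF were higher, against 44.3% otherwise.

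Rats of equal number in different groups did not deviate together (9 pairs, correlation -0.376 to 0.253, median 0.0141; in 2 of 18 cases the rat of equal number was the closest in the other group), so they were not treated as pairs. A fit with the rat number as a block, 1 of the 23 analyses, called 807 genes (6.94% of all) and 7 of the 37 in ZF against ZL (median of the 37 -0.17). It called 223 genes in ZF-SGLT2i against ZF, and 1502 genes (12.9% of all) and 12 of the 37 in ZF-SGLT2i against ZL. Among the partner genes named, it lost the calls of Acat2, Scd2 and Tm7sf2 in ZF against ZL (adjusted p 0.0842, 0.0845 and 0.237). It also lost that of Acsl1 in ZF-SGLT2i against ZF (0.178). In ZF-SGLT2i against ZL it lost those of Acat2, Soat1, Mbtps1, Npc1, Idh1 and Pnpla3 (0.163, 0.0666, 0.101, 0.0674, 0.192 and 0.22). In ZF-SGLT2i against ZF, 366 genes were called in the fit as reported, 689 with array quality weights (5.92% of all genes, and 4 of the 37) and 641 with DESeq2. Leaving out 1 rat gave 1384 to 2453 called genes in ZF against ZL (1384 without ZL rat 1, 1426 without ZF rat 3, 1454 without ZF rat 2) and 176 to 569 in ZF-SGLT2i against ZF (569 without ZF rat 5, and 176, 181, 184, 188, 206 and 209 without ZF-SGLT2i rats 3 and 6, ZF rats 3, 4 and 2 and ZF-SGLT2i rat 4). Of the 37 genes it gave 12 to 20 in ZF against ZL (12 without ZL rat 4), beside 11.9% to 21.1% of all genes. In ZF-SGLT2i against ZF it gave 2 to 4, beside 1.52% to 4.9% of all genes. The 4 were found without ZF rat 5 (Elovl6, Acly, Fasn and Acacb), where 4.9% of all genes were called. In ZF-SGLT2i against ZL it gave 16 to 22, beside 19.3% to 28.4% of all genes. The fit as reported called 21 of the 37 there, and 27.4% of all genes. The causes of these shifts were not tested. At the depth of these libraries the least read of the 37 genes, Hsd17b7, had 33 to 75 reads per rat, and with 4 rats a group the smallest exact permutation p is 0.0286.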
